A study of Homo sapiens with 12 samples.

Results

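ATM, ATR and PRKDC are the apical kinases of the DNA damage response, CHEK1 and CHEK2 are the checkpoint kinases they act through, and MDM2 and MDM4 are the inhibitors of p53. The transcripts of these 7 genes were followed in HCT116 cells in which the phosphatase Wip1 was depleted, the kinase activity of ATM was inhibited, or both. All probes that the platform annotation gives 1 of these 7 gene symbols were taken, without regard to their values, which gave 17 of the 30113 probes with a single gene symbol, and 7 of the 20046 genes so named. Of the 17, 11 were tested, from 6 genes, and these 11 were detected on all 12 arrays. The other 6 were detected on none, and they include all 3 probes of ATR. The p53 gene itself is not among the 7 and was not analysed here.

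HCT116 is an established human colorectal carcinoma cell line. There were 4 groups of 3 arrays. Wip1SH+ATMi cells carried a short hairpin RNA against Wip1 and received an ATM inhibitor at 10 µM for 3 days, renewed daily. Wip1SH cells carried the hairpin and were untreated. WT+ATMi cells carried no hairpin and received the same inhibitor for the same time, and WT cells had neither. All groups were grown in the same medium, and the design text states 3 biological replicates for each group. The labels name no control hairpin and no vehicle, and they do not say which ATM inhibitor was used or whether the depleted line was 1 clone, so effects of a hairpin or of a solvent as such cannot be told apart from those of depletion and inhibition.

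These proteins form a relay. ATM is activated by double-strand breaks, ATR by exposed single-stranded DNA at stalled replication forks, and DNA-PK, whose catalytic subunit PRKDC encodes, by DNA ends that it helps to rejoin. ATM passes the signal mainly to CHEK2 and ATR mainly to CHEK1, which hold back the CDC25 phosphatases and so the cell cycle, and the kinases also phosphorylate p53, MDM2 and MDM4. MDM2 is the ubiquitin ligase that marks p53 for degradation and is itself a p53 target gene, while its paralog MDM4 binds p53 and blocks its activity. Wip1, the product of the p53 target PPM1D, removes many of these phosphate groups. The arrays measured transcript levels alone, and the phosphorylation that carries this signal was not measured.

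The arrays separated the groups and showed the depletion. PPM1D averaged 8.68 ± 0.22 in Wip1SH and 10.34 ± 0.08 in WT on the log2 intensity scale, and 8.79 ± 0.09 in Wip1SH+ATMi against 10.64 ± 0.04 in WT+ATMi (SD, n = 3 each). Correlations of arrays were 0.990 to 0.995 within groups and 0.975 to 0.987 between groups. Of 10 colon epithelial markers, 6 were detected on all arrays (EPCAM, CDH1, KRT8, KRT18, KRT19 and CDX2), while VIL1, LGALS4, CEACAM5 and CDX1 were detected on none. None of 4 endothelial markers was detected on any array, none of 4 immune markers on all, and of 6 fibroblast markers COL1A1 was detected on all. The brightness of the arrays moved with the groups: the mean raw signal was 694 ± 48.9 in Wip1SH+ATMi, 613 ± 61.7 in Wip1SH, 689 ± 31.5 in WT+ATMi and 524 ± 10.5 in WT (SD, n = 3 each). The number of detected probes was 19505 to 20408, 18568 to 18961, 18723 to 19654 and 17650 to 17929 in the same order of groups. Quantile normalization removes such differences in overall brightness, and with arrays set to equal medians over all probes instead, the median of the tested probes moved to 0.41 for WT+ATMi against WT and to 0.24 for Wip1SH against WT on the log2 scale. Log2 differences are therefore relative to the bulk of the transcripts, and in bulk RNA fewer cells with a transcript and less of it per cell cannot be told apart.

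Over the 6 comparisons of groups, 7 of the 11 tested probes passed the test at least once, from 5 of the 6 tested genes, all but CHEK2. The share of all tested probes that passed at least once was not computed, so these counts are not a trait of the circuit. The CHEK1 probe passed in 5 of the 6 and the brightest PRKDC probe in 4, and no share of all probes was computed for such counts. After Wip1 depletion alone, 1 of 11 probes passed the test (Wip1SH against WT, CHEK1, lower), where 29.2% of the 15772 tested probes did. After the inhibitor alone, 4 of 11 passed (WT+ATMi against WT, 3 higher and 1 lower), where 23% of all did. In depleted cells the inhibitor gave 3 of 11 (Wip1SH+ATMi against Wip1SH, 2 higher and 1 lower), with 20.6% of all. Under the inhibitor, depletion gave 4 of 11 (Wip1SH+ATMi against WT+ATMi, 1 higher and 3 lower), with 18.3% of all. Both together gave 2 of 11 (Wip1SH+ATMi against WT, 1 higher and 1 lower), with 38% of all. Wip1SH differed from WT+ATMi in 5 of 11 (1 higher and 4 lower), with 31.3% of all. These comparisons share arrays, so their counts are not independent.

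The tests were limma's moderated tests on log2 intensities, two-sided, at an adjusted p under 0.05 (Benjamini-Hochberg over the 15772 probes). Counts this small depended on single arrays. Without WT+ATMi replicate 3, Wip1SH against WT gave 2. For WT+ATMi against WT the count was 2 without WT replicate 2 or 3, and 1 without WT+ATMi replicate 1 or 3. Wip1SH+ATMi against Wip1SH gave 1 without any of WT replicate 2, WT+ATMi replicates 1, 2 and 3, Wip1SH replicates 1, 2 and 3 and Wip1SH+ATMi replicate 3. Wip1SH+ATMi against WT+ATMi gave 2 without any of WT+ATMi replicates 1, 2 and 3 or Wip1SH+ATMi replicates 1 and 2. Without Wip1SH+ATMi replicate 3, Wip1SH+ATMi against WT gave 1, and Wip1SH against WT+ATMi gave 3 without WT+ATMi replicate 2 or Wip1SH replicate 2. The number of detected probes differed between the groups, and every WT array had fewer than any other array. As a covariate it therefore overlaps with group. A call lost with it can be lost while the difference stays or grows, and the effects of group and covariate cannot be fully told apart. With the detected-probe number as a covariate the counts were 0 in Wip1SH against WT, WT+ATMi against WT, Wip1SH+ATMi against Wip1SH and Wip1SH+ATMi against WT. They were 1 in Wip1SH+ATMi against WT+ATMi and 3 in Wip1SH against WT+ATMi. Of all 15772 probes, 907, 21, 156, 33, 1279 and 3810 passed in the same order of comparisons.

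**Figure D1:**
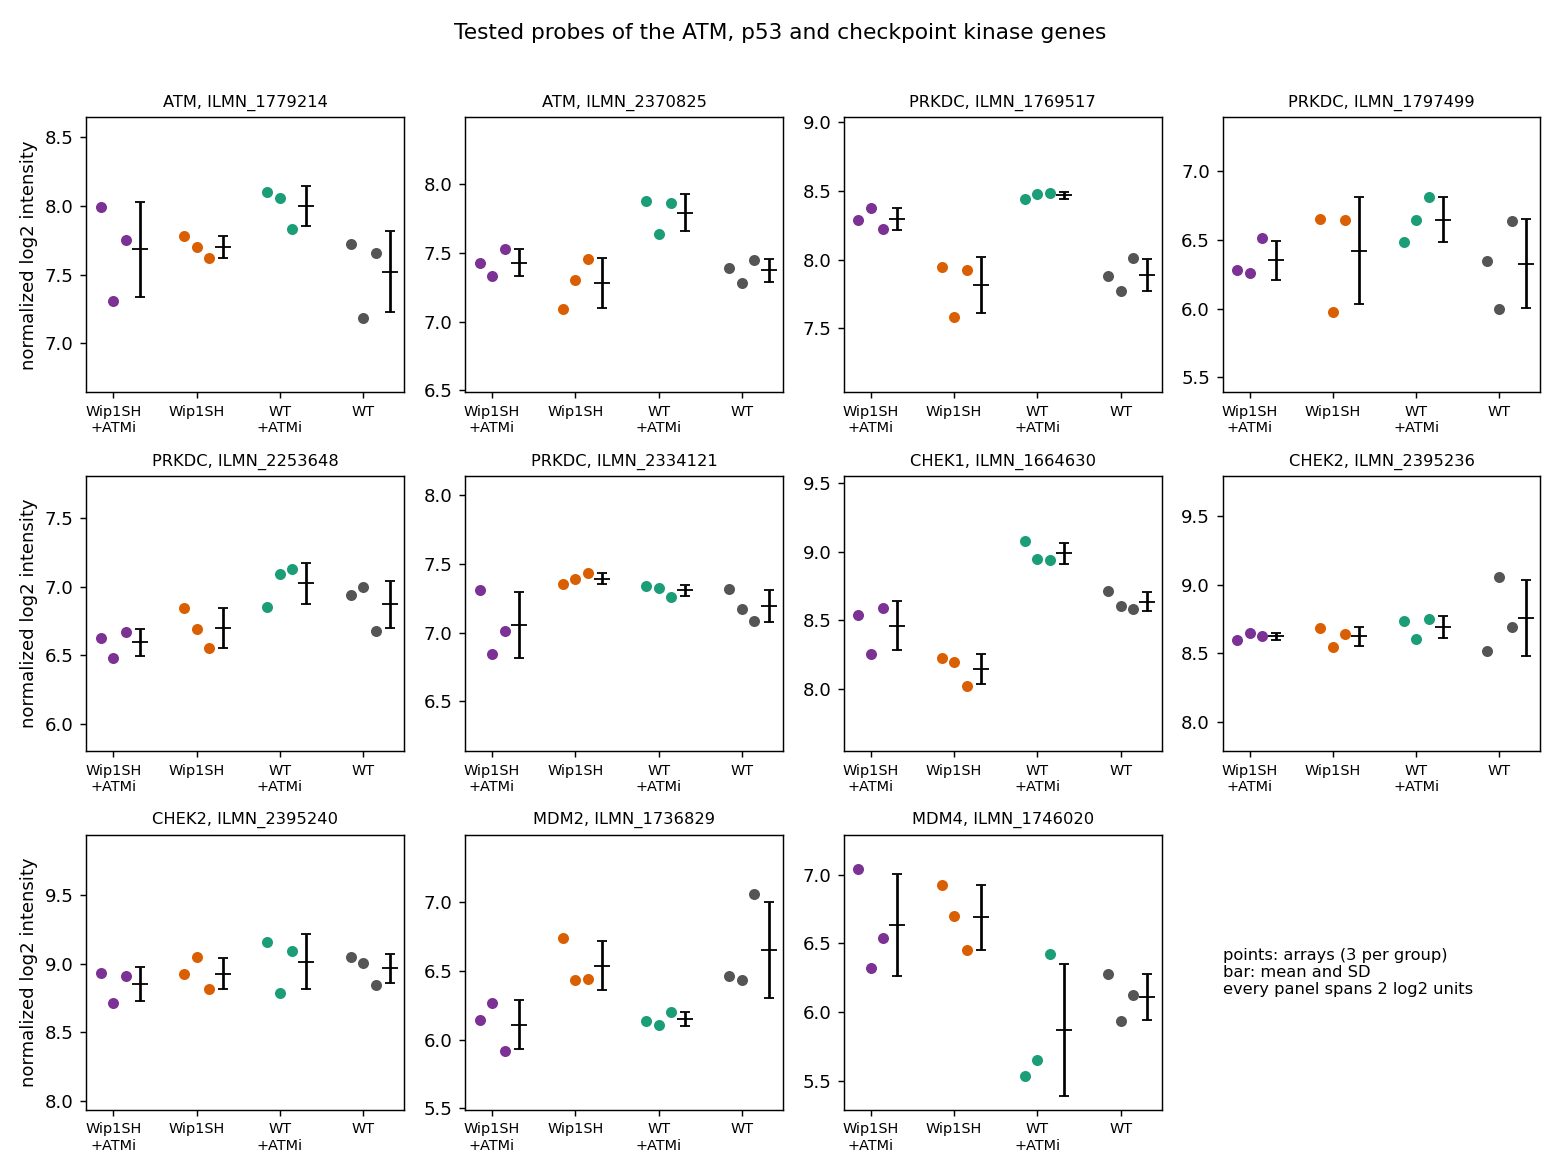
Log2 intensity (vertical axis) of each of the 11 tested probes in every array, by group (Wip1SH+ATMi, Wip1SH, WT+ATMi, WT), with 1 point per array and a bar for the mean and SD of 3. CHEK1 lies between 8.02 and 8.22 in Wip1SH and between 8.58 and 8.71 in WT, while both CHEK2 probes overlap across all groups.

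**Figure D2:**
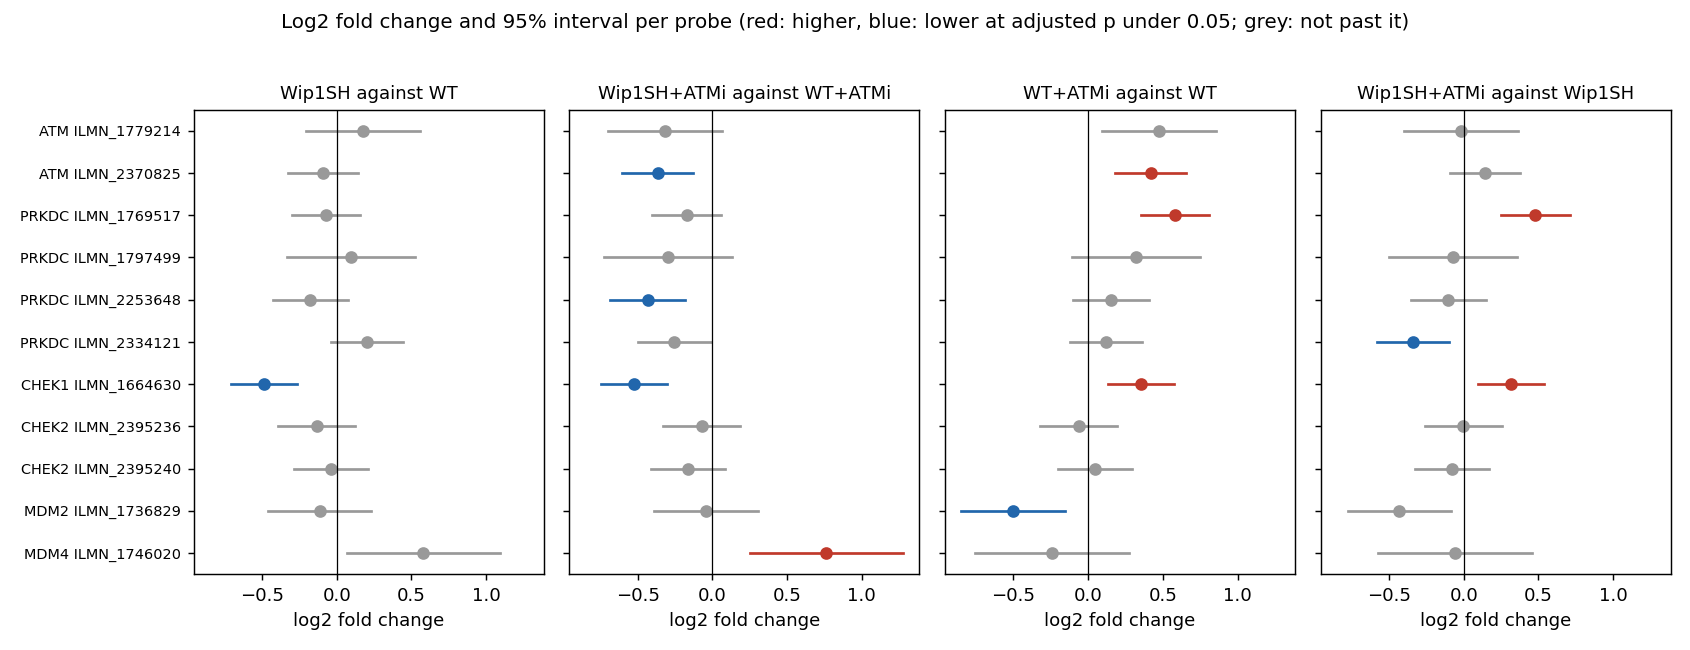
Log2 fold change (horizontal axis) with its 95% interval for the 11 tested probes in the 4 comparisons of 1 factor at a time; red marks probes higher and blue probes lower at an adjusted p under 0.05. Depletion lowered CHEK1 without the inhibitor (-0.49) and with it (-0.53), and the inhibitor raised the brightest PRKDC probe in WT cells (0.58) and in Wip1SH cells (0.48).

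ATM, the kinase that the inhibitor targets, had slightly more transcript in inhibited WT cells by 1 of its probes. Probe ILMN_2370825 read 7.43, 7.33 and 7.53 in Wip1SH+ATMi, 7.09, 7.30 and 7.45 in Wip1SH, 7.88, 7.64 and 7.86 in WT+ATMi and 7.39, 7.28 and 7.45 in WT. All 3 WT+ATMi arrays lay above every array of the other groups, and those other groups overlapped one another. The log2 difference was 0.42 ± 0.11 (SE) for WT+ATMi against WT (adjusted p = 0.0164), a 1.34-fold rise. It was -0.37 ± 0.11 for Wip1SH+ATMi against WT+ATMi (adjusted p = 0.0349) and 0.14 for Wip1SH+ATMi against Wip1SH, which was not past the threshold. The rise was no longer past it without WT replicate 2 or WT+ATMi replicate 1 or 3 (adjusted p = 0.0544 to 0.0628). The fall was no longer past it without WT+ATMi replicate 1 or 3 or Wip1SH+ATMi replicate 1 or 2 (0.0821 to 0.112).

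The second detected ATM probe, ILMN_1779214, varied more among replicates. It read 7.99, 7.31 and 7.76 in Wip1SH+ATMi, 7.78, 7.70 and 7.62 in Wip1SH, 8.10, 8.06 and 7.83 in WT+ATMi and 7.72, 7.18 and 7.66 in WT. The WT+ATMi arrays again lay above the WT arrays but overlapped Wip1SH+ATMi. Its difference of 0.48 ± 0.17 for WT+ATMi against WT had an adjusted p of 0.0696, and 0.0345 without Wip1SH+ATMi replicate 2, which adds to the shared variance only. The third probe, ILMN_1713630, was at background on every array (detection p 0.873 to 0.999).

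ATR, the kinase of replication stress, could not be measured here. Its 3 probes had detection p-values of 0.592 to 0.955 (ILMN_1660342), 0.0675 to 0.505 (ILMN_2277201) and 0.0805 to 0.703 (ILMN_2376771) over the 12 arrays. No array therefore placed ATR above its negative controls at 0.05, and no difference is given for it.

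PRKDC gave the largest rise among the circuit's probes under the inhibitor, but by 1 of its 4 probes. The brightest, ILMN_1769517, read 8.29, 8.38 and 8.22 in Wip1SH+ATMi, 7.94, 7.58 and 7.92 in Wip1SH, 8.44, 8.48 and 8.49 in WT+ATMi and 7.88, 7.77 and 8.01 in WT. Every array with the inhibitor lay above every array without it. The log2 difference was 0.58 ± 0.10 for WT+ATMi against WT (adjusted p = 0.00286), 1.49-fold. It was 0.48 ± 0.10 for Wip1SH+ATMi against Wip1SH (adjusted p = 0.0083), 1.40-fold, and 0.41 ± 0.10 for Wip1SH+ATMi against WT (adjusted p = 0.00927). These 3 calls held without each array in turn and were lost with the detected-probe number as a covariate, at 0.71, 0.58 and 0.60 on the log2 scale (adjusted p = 0.223, 0.148 and 0.425).

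None of the other PRKDC probes was called higher with the inhibitor, except that with equal array medians over all probes ILMN_1797499, ILMN_2253648 and ILMN_2334121 were higher in WT+ATMi against WT by 0.66, 0.56 and 0.55 (adjusted p = 0.0115, 0.00664 and 0.00634), where the median of all tested probes had moved to 0.41. ILMN_1797499 read 6.28, 6.26 and 6.52 in Wip1SH+ATMi, 6.65, 5.97 and 6.64 in Wip1SH, 6.48, 6.64 and 6.81 in WT+ATMi and 6.35, 5.99 and 6.64 in WT, with all groups overlapping and no call. ILMN_2253648 read 6.63, 6.48 and 6.67 in Wip1SH+ATMi, 6.84, 6.70 and 6.55 in Wip1SH, 6.86, 7.10 and 7.13 in WT+ATMi and 6.94, 7.0 and 6.68 in WT. ILMN_2334121 read 7.31, 6.84 and 7.01 in Wip1SH+ATMi, 7.36, 7.39 and 7.43 in Wip1SH, 7.34, 7.32 and 7.26 in WT+ATMi and 7.32, 7.17 and 7.08 in WT. For ILMN_2253648 the doubly treated arrays lay below those with the inhibitor alone, and for ILMN_2334121 they lay below those with depletion alone. The first of these differences was -0.43 ± 0.12 for Wip1SH+ATMi against WT+ATMi (adjusted p = 0.0228), and it was not past the threshold without WT+ATMi replicate 2 or 3 or Wip1SH+ATMi replicate 1 or 2 (0.0514 to 0.0847). The second was -0.34 ± 0.11 for Wip1SH+ATMi against Wip1SH (adjusted p = 0.0497), opposite in sign to the brightest probe. It held in 7 of 24 alternative settings and was lost without any array other than WT replicate 1 and Wip1SH+ATMi replicate 1 (0.0512 to 0.172).

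The brightest PRKDC probe was also set against each other PRKDC probe within the same array. The difference of ILMN_1769517 and ILMN_2253648 within an array averaged 1.70 in Wip1SH+ATMi, 1.12 in Wip1SH, 1.44 in WT+ATMi and 1.02 in WT. The difference of ILMN_1769517 and ILMN_2334121 averaged 1.24, 0.42, 1.16 and 0.70 in the same order of groups. The inhibitor widened them by 0.50 and 0.64 on the log2 scale (exact permutation test over arrays within the WT and Wip1SH cells, two-sided, p = 0.005 each, the smallest it allows, adjusted p = 0.04 over 16 tests). The gap to ILMN_1797499 widened by 0.41, which was not past the threshold (exact permutation p = 0.015, adjusted p = 0.08). These 16 tests, on 8 pairs of probes and 2 factors, were chosen after the values were seen, and none of the 13 others passed, the ATM and CHEK2 pairs included. The 2 that passed share ILMN_1769517, which was already called higher with the inhibitor. They describe the same values again and are not separate support. The platform annotation lists ILMN_1769517 and ILMN_1797499 under one transcript of PRKDC and the remaining pair under another.

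**Figure D3:**
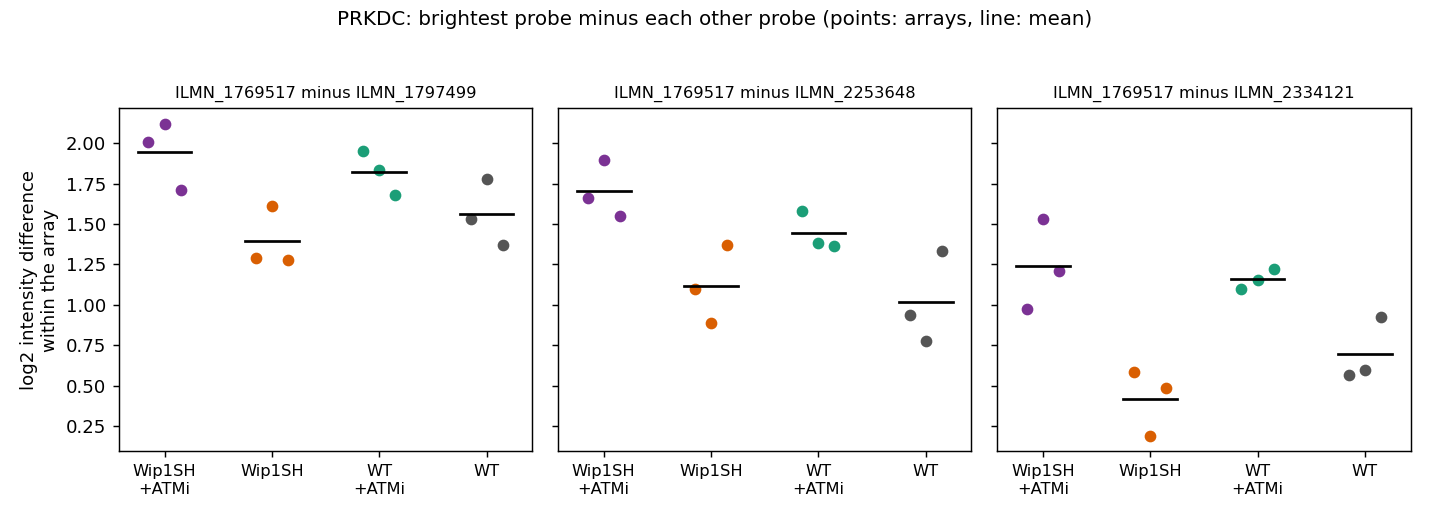
Log2 intensity of the brightest PRKDC probe minus that of each other PRKDC probe in the same array (vertical axis), by group, with 1 point per array and a line at the mean. In the middle and right panels the means with the inhibitor (1.70 and 1.44, 1.24 and 1.16) lie above those without it (1.12 and 1.02, 0.42 and 0.70).

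CHEK1, the checkpoint kinase downstream of ATR, was lower with Wip1 depletion and higher with the inhibitor. Its single probe, ILMN_1664630, read 8.54, 8.25 and 8.59 in Wip1SH+ATMi, 8.22, 8.19 and 8.02 in Wip1SH, 9.08, 8.95 and 8.94 in WT+ATMi and 8.71, 8.61 and 8.58 in WT. The Wip1SH arrays were the lowest and the WT+ATMi arrays the highest, and in neither background did arrays with and without the inhibitor overlap. Of the 3 start sites that the promoter table gives for CHEK1, the 250 bases before the most upstream are shown because this probe was called in the most comparisons, with the CCAAT box, read on the opposite strand, in capitals (chr11:125625974-125626223, plus strand, RefSeq, GRCh38.p14).

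CHEK1 promoter: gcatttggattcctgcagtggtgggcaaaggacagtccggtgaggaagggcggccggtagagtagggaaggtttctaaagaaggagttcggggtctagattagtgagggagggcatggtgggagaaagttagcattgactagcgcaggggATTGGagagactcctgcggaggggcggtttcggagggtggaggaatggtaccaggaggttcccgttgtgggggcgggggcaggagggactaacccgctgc

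This window holds 1 CCAAT box, which lies 100 bases before the start. A CCAAT box (CCAAT, both strands) is in 32% of the 35114 promoter windows of the same length, and the E2F motifs searched (TTTCCCGC, TTTCGCGC, TTTGCCGC and TTTGGCGC, both strands, in 2.79% of windows) are not in the windows of any of these 3 CHEK1 starts. The RefSeq gene record of CHEK1 begins further upstream, at chr11:125625136, and the bases before that position were not searched. A match or its lack is a description of these letters and not of binding.

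The CHEK1 differences by depletion were -0.49 ± 0.10 for Wip1SH against WT (adjusted p = 0.00461), 1.40-fold lower, and -0.53 ± 0.10 for Wip1SH+ATMi against WT+ATMi (adjusted p = 0.00411), 1.44-fold lower. Both held without each array in turn. With equal array medians over all probes the difference for Wip1SH against WT was -0.19 (adjusted p = 0.39), where the median of all tested probes had moved to 0.24. With the detected-probe number as a covariate it was -0.58 (adjusted p = 0.0616), while Wip1SH+ATMi against WT+ATMi passed in all 25 alternative settings (adjusted p = 0.000357 to 0.0357).

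The inhibitor raised CHEK1 by 0.35 ± 0.10 in WT cells (WT+ATMi against WT, adjusted p = 0.0264) and by 0.31 ± 0.10 in depleted cells (Wip1SH+ATMi against Wip1SH, adjusted p = 0.0472). The rise in WT cells was not past the threshold without WT replicate 2 or 3 or WT+ATMi replicate 1 or 3 (0.054 to 0.0944). The rise in depleted cells held in 9 of 25 alternative settings, and leaving out any array but Wip1SH+ATMi replicate 2 ended the call (0.0519 to 0.151). The order of the means was WT+ATMi, WT, Wip1SH+ATMi and Wip1SH, and the neighbours WT and Wip1SH+ATMi did not differ past the threshold (adjusted p = 0.198).

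CHEK2, the checkpoint kinase downstream of ATM, showed no call in any comparison by its detected probes. ILMN_2395236 read 8.60, 8.65 and 8.63 in Wip1SH+ATMi, 8.68, 8.55 and 8.64 in Wip1SH, 8.73, 8.60 and 8.75 in WT+ATMi and 8.52, 9.06 and 8.69 in WT. ILMN_2395240 read 8.93, 8.71 and 8.91 in Wip1SH+ATMi, 8.92, 9.05 and 8.81 in Wip1SH, 9.16, 8.79 and 9.09 in WT+ATMi and 9.05, 9.01 and 8.84 in WT. The groups overlapped in both. For Wip1SH against WT the 95% intervals of the log2 difference were -0.39 to 0.12 and -0.29 to 0.21, and for WT+ATMi against WT they were -0.32 to 0.20 and -0.20 to 0.30, so changes within those bounds could not be seen with 3 arrays per group. The WT+ATMi against WT difference of ILMN_2395236, -0.06, turned to 0.42 (adjusted p = 0.036) with equal array medians over all probes, and that of ILMN_2395240, 0.05, became 0.54 (adjusted p = 0.0136). The third probe, ILMN_1759585, was at background on all arrays (detection p 0.486 to 0.909).

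MDM2, the p53-induced ligase of p53, was lower with the inhibitor and was not called with depletion. Its detected probe, ILMN_1736829, read 6.14, 6.27 and 5.92 in Wip1SH+ATMi, 6.74, 6.43 and 6.45 in Wip1SH, 6.14, 6.11 and 6.20 in WT+ATMi and 6.47, 6.44 and 7.06 in WT. All arrays with the inhibitor lay below all arrays without it, and WT replicate 3 stood above the other arrays. The difference was -0.50 ± 0.16 for WT+ATMi against WT (adjusted p = 0.0398), 1.42-fold lower, and -0.54 ± 0.16 for Wip1SH+ATMi against WT (adjusted p = 0.0182), 1.46-fold lower. In depleted cells it was -0.43 ± 0.16 for Wip1SH+ATMi against Wip1SH, with an adjusted p of 0.0777, and of 0.0198 without WT replicate 3. For Wip1SH against WT it was -0.11 ± 0.16 (95% interval -0.46 to 0.23, adjusted p = 0.62).

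The MDM2 fall in WT cells was not past the threshold without WT replicate 3, any of the 3 WT+ATMi arrays or Wip1SH+ATMi replicate 1 (log2 difference -0.53 to -0.30, adjusted p = 0.0528 to 0.112), and it held in 15 of 25 alternative settings. The call for Wip1SH+ATMi against WT was lost without WT replicate 3 or Wip1SH+ATMi replicate 3 (0.0535 and 0.0741). With equal array medians over all probes, MDM2 was -0.15 in WT+ATMi against WT and -0.23 in Wip1SH+ATMi against WT (adjusted p = 0.417 and 0.228). The medians of all tested probes had then moved to 0.41 and 0.37. With the detected-probe number as a covariate, MDM2 was -0.36 and -0.33 (adjusted p = 0.694 and 0.812). With only the groups compared, the adjusted p was 0.0795 and 0.0546. The second MDM2 probe, ILMN_1814208, was at background (detection p 0.299 to 0.878).

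MDM2 has an outer and an internal promoter, and the internal one, in its intron 1, is known to respond to p53. The internal promoter is shown because MDM2 is the direct p53 target among the 7 genes, with the p53 response element that the motif search found in capitals (chr12:68808767-68809016, plus strand, RefSeq, GRCh38.p14). The MDM4 window is shown beside it for the paralog, with no motif match and so no capitals (chr1:204516156-204516405, plus strand, RefSeq, GRCh38.p14).

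MDM2 internal promoter: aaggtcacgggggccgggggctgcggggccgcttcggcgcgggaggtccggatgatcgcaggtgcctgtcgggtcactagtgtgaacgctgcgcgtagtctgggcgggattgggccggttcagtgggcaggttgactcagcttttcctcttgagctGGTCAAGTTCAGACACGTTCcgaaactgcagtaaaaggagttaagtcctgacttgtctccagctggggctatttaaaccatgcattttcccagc

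MDM4 promoter: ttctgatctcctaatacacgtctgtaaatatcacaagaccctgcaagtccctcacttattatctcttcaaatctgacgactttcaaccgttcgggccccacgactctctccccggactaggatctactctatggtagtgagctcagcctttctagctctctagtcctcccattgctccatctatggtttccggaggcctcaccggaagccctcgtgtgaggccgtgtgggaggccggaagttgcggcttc

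The marked element, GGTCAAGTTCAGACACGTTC, lies at chr12:68808923-68808942, 94 bases before the annotated start. The p53 response element search allowed at most 2 mismatches over 20 bases, with the core C and G of each decamer kept, on both strands. It found matches in 0.242% of the 35114 windows (85 windows). Of the 12 windows of the members other than PRKDC, it found them in those of 2 MDM2 starts, which overlap. PRKDC windows were left out of the members' windows. The rule was set with this known MDM2 element in mind, so its match there is no finding. A further p53 element of the window that breaks the rule would stand in lower case.

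MDM4, the MDM2 paralog, was higher in depleted cells, with a wide spread. Its probe, ILMN_1746020, read 7.04, 6.32 and 6.54 in Wip1SH+ATMi, 6.92, 6.70 and 6.45 in Wip1SH, 5.53, 5.65 and 6.42 in WT+ATMi and 6.27, 5.93 and 6.12 in WT. The Wip1SH arrays lay above the WT arrays, whereas Wip1SH+ATMi overlapped WT+ATMi through WT+ATMi replicate 3. The probe was near the detection limit in the lower groups: detection p was 0.0416 and 0.0338 in WT+ATMi replicates 1 and 2. It was 0.0169 in WT replicates 2 and 3, and 0.0039 or lower on the other arrays. Of the depletion contrasts, the one under the inhibitor passed, with 0.76 ± 0.24 for Wip1SH+ATMi against WT+ATMi (adjusted p = 0.0424), 1.70-fold. The one without it was 0.58 ± 0.24 for Wip1SH against WT (adjusted p = 0.0842), and it passed without WT+ATMi replicate 3 (adjusted p = 0.0357). The interaction was not called, so the contrasts are not shown to differ. The call under the inhibitor was lost without WT replicate 3, WT+ATMi replicate 1 or 2, Wip1SH replicate 2 or Wip1SH+ATMi replicate 1 or 3 (0.0508 to 0.149). Over the 25 alternative settings it held in 16, with log2 differences of 0.37 to 1.04.

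The direct comparison of the single perturbations, Wip1SH against WT+ATMi, held the largest differences of the circuit. CHEK1 was lower by -0.84 ± 0.10 (adjusted p = 0.000103), the brightest PRKDC probe by -0.65 ± 0.10 (adjusted p = 0.000671) and ATM probe ILMN_2370825 by -0.51 ± 0.11 (adjusted p = 0.00388). These 3 calls held in all alternative settings other than the fold threshold, 25, 25 and 24 of them. MDM4 was higher by 0.82 ± 0.24 (adjusted p = 0.0198), which was lost without WT+ATMi replicate 1 or 2 or Wip1SH replicate 1 or 2 (0.0502 to 0.0828). PRKDC probe ILMN_2253648, at -0.33 ± 0.12 (adjusted p = 0.0477), was lost without any of WT replicate 1, WT+ATMi replicates 2 and 3, Wip1SH replicates 2 and 3 and the 3 Wip1SH+ATMi arrays (0.0501 to 0.161). MDM2 was higher by 0.39 ± 0.16, with an adjusted p of 0.0843.

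No member showed an interaction, that is, an effect of the inhibitor that differed between Wip1SH and WT cells. Of 11 probes, 0 passed limma's test after adjustment, where 2.57% of all tested probes did, and 1 had an unadjusted p under 0.05. That probe was PRKDC ILMN_2334121, with a difference of differences of -0.46 and an adjusted p of 0.153. An effect seen in one background and not in the other, as for ATM or MDM2, is thus not shown to differ between them.

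The other genes of the pathway were read from 8 lists, with the brightest probe of a gene standing for it. With equal array medians over all probes, 8682 of the 15772 tested probes were higher in WT+ATMi against WT and 4850 in Wip1SH against WT. With the detected-probe number as a covariate, 907 passed in Wip1SH against WT and 21 in WT+ATMi against WT. There were 156 in Wip1SH+ATMi against Wip1SH and 1279 in Wip1SH+ATMi against WT+ATMi. List counts under these settings moved on that background. The list named cell cycle targets of the checkpoint kinases is broader than its name, as it also holds cyclins, CDK1, CDK2, PLK1 and AURKA. This list moved most with depletion: 0 of 11 rose and 8 fell in Wip1SH against WT (median -0.62). There, 14.6% of the 11785 genes fell and the median of all was 0.01. CDC25A, the phosphatase that CHEK1 marks for destruction, fell by 0.94 ± 0.12 (SE), CDC25B by 0.76 ± 0.09, cyclin B1 (CCNB1) by 0.68 ± 0.10 and cyclin A2 (CCNA2) by 0.67 ± 0.08, with adjusted p-values of 0.000307, 0.000165, 0.000628 and 0.000216. Under the inhibitor 7 of 11 fell (Wip1SH+ATMi against WT+ATMi, median -0.39, with 9.77% of all genes falling). By contrast 0 of 11 passed in WT+ATMi against WT (limma, 23.9% of all genes in either direction), and 1 fell without WT+ATMi replicate 2 or Wip1SH+ATMi replicate 1 or 2. With equal array medians over all probes the count of 8 became 3, the 7 became 4, and 9 rose in WT+ATMi against WT. The 8 became 4 with the detected-probe number as a covariate.

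The E2F-regulated genes of S phase moved alongside CHEK1 in Wip1SH against WT and in Wip1SH+ATMi against Wip1SH. In Wip1SH against WT, 0 of 18 rose and 11 fell (median -0.46, where 14.6% of all genes fell), and in Wip1SH+ATMi against Wip1SH 11 of 18 rose and 0 fell (median 0.40, where 13.4% of all genes rose). The replication helicase subunits MCM5 and MCM3 fell by 1.05 ± 0.09 (adjusted p = 2.83e-05) and 0.60 ± 0.07 (adjusted p = 0.000231) in Wip1SH against WT. GINS2, which works with that helicase, was -0.68 ± 0.09 in Wip1SH against WT and 0.67 ± 0.09 in Wip1SH+ATMi against Wip1SH (adjusted p = 0.000351 and 0.000673). Leaving out single arrays gave 9 to 10 that rose in Wip1SH+ATMi against Wip1SH. Depletion under the inhibitor, where CHEK1 was -0.53, had 0 of 18 higher and 3 lower (Wip1SH+ATMi against WT+ATMi, median -0.17). There, 9.77% of all genes fell. In WT+ATMi against WT 0 of 18 rose and 1 fell (14.6% and 9.33% of all genes), UHRF1 (-0.29 ± 0.08, adjusted p = 0.0217), and none fell without any one of WT replicates 1 and 2 or WT+ATMi replicates 1, 2 and 3. With the detected-probe number as a covariate, the 11 that rose in Wip1SH+ATMi against Wip1SH became 1, where 83 of the 15772 tested probes rose. With equal array medians over all probes the 11 that fell in Wip1SH against WT became 5, where 395 of all probes fell. In WT+ATMi against WT 16 then rose, where 8682 of all probes did. Wip1SH against WT and Wip1SH+ATMi against Wip1SH share the Wip1SH arrays.

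The p53 target genes beside MDM2 went up with depletion, while MDM2 had -0.11 and was not called. In Wip1SH against WT 11 of 21 rose and 0 fell (median 0.45, where 16% of all genes rose). GADD45A, a growth arrest gene, rose by 1.37 ± 0.08 (adjusted p = 1.63e-06), PHLDA3, an inhibitor of AKT signalling, by 0.76 ± 0.09 (adjusted p = 0.000212) and SESN1, a stress-induced inhibitor of mTOR signalling, by 0.67 ± 0.08 (adjusted p = 0.000173). Under the inhibitor 9 rose and 3 fell (Wip1SH+ATMi against WT+ATMi, with 9.56% and 9.77% of all genes), and 7 rose and 1 fell without WT+ATMi replicate 3. The 11 that rose in Wip1SH against WT became 5 with the detected-probe number as a covariate. There, 16 rose with equal array medians over all probes, and under the inhibitor 4 rose and 2 fell. The covariate gave 6 and 1 under the inhibitor.

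With the inhibitor in depleted cells, where MDM2 was -0.43 and not past the threshold, 0 p53 targets rose and 7 of 21 fell (Wip1SH+ATMi against Wip1SH, median -0.12, with 8.46% of all genes falling). SFN, the p53-induced 14-3-3 sigma, fell by 0.98 ± 0.08 (adjusted p = 6.19e-05) and TP53I3, an oxidoreductase, by 0.65 ± 0.09 (adjusted p = 0.000687). Without Wip1SH replicate 2, 4 fell, and without Wip1SH+ATMi replicate 1, 1 rose and 6 fell. With the detected-probe number as a covariate 1 fell, and with equal array medians over all probes 1 rose and 2 fell. In WT+ATMi against WT, 5 rose and 3 fell (median 0.09, where 14.6% of all genes rose and 9.33% fell). With equal array medians these were 13 and 0, and with the covariate 0 and 0. Without WT replicate 1 it was 3 and 4, without WT replicate 2 it was 3 and 3, and without WT+ATMi replicate 1 it was 2 and 3. Among those that fell, SFN had -0.59 ± 0.08 (adjusted p = 0.000736), while GDF15, a stress cytokine, was higher by 0.89 ± 0.10 (adjusted p = 0.000201).

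ATM and PRKDC belong to the phosphatidylinositol 3-kinase-like kinases, whose other members TRRAP, SMG1 and MTOR were also higher with the inhibitor in WT cells. In WT+ATMi against WT, TRRAP, a scaffold of histone acetyltransferase complexes, rose by 0.66 ± 0.09 (adjusted p = 0.000535). SMG1, the kinase of nonsense-mediated decay, rose by 0.52 ± 0.09 (adjusted p = 0.00239) and MTOR, the growth kinase, by 0.34 ± 0.08 (adjusted p = 0.00916). In Wip1SH+ATMi against Wip1SH TRRAP rose by 0.46 ± 0.09 (adjusted p = 0.00374) and MTOR by 0.26 ± 0.08 (adjusted p = 0.0332, past the threshold in 18 of 25 alternative settings), and SMG1 was at -0.01. Each rise in WT cells held in 24 of 25 alternative settings and was lost with the detected-probe number as a covariate, at 0.75 for TRRAP, 0.73 for SMG1 and 0.27 for MTOR (adjusted p = 0.157, 0.157 and 0.515). Of the 10 genes in the list, the others being assembly factors of these kinases, 3 rose and 1 fell in WT+ATMi against WT (14.6% and 9.33% of all genes). The gene that fell was RUVBL1 (-0.37 ± 0.10, adjusted p = 0.0203), and 0 fell without WT replicate 3 or WT+ATMi replicate 1 or 3. The counts were 6 and 0 with equal array medians over all probes.

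The remaining 4 lists moved in both directions. Of 18 sensors and mediators, 1 rose and 2 fell in Wip1SH against WT (median 0.05, where 16% of all genes rose and 14.6% fell). The one that rose was WDHD1 (0.43 ± 0.12, adjusted p = 0.022), and it was lost without WT replicate 1 or 2 or Wip1SH replicate 2 or 3. RAD9A, of the clamp that activates ATR, had -0.85 ± 0.14 in Wip1SH against WT and 0.90 ± 0.14 in Wip1SH+ATMi against Wip1SH (adjusted p = 0.00147 and 0.00169). TIMELESS, a fork protection factor that aids CHEK1 activation, had -0.65 ± 0.09 and 0.48 ± 0.09 in the same comparisons (adjusted p = 0.000432 and 0.00364). Of 9 DNA-PK partners and end-joining factors, 2 rose and 2 fell in WT+ATMi against WT (14.6% and 9.33% of all genes), among them XRCC4, the partner of DNA ligase IV, at -1.03 ± 0.21 (adjusted p = 0.00498). Leaving out single arrays gave 1 or 2 in each direction there, and omission of Wip1SH+ATMi replicate 2 alone kept 2 in both directions, each of the other 11 arrays giving 1 in at least 1 direction. The Ku subunit XRCC6 fell by 0.37 ± 0.08 in Wip1SH against WT (adjusted p = 0.00409). Of 14 regulators of MDM2 and MDM4, 3 rose and 3 fell in Wip1SH against WT (16% and 14.6% of all genes), and CDKN2A, whose ARF product inhibits MDM2, fell by 0.72 ± 0.11 (adjusted p = 0.000604). Without WT replicate 2 or Wip1SH replicate 1 or 3, 1 rose. Of 10 phosphatases, 2 rose and 3 fell in Wip1SH against WT (16% and 14.6% of all genes). Those that fell include PPM1D, the target of the hairpin itself. PPM1B, a relative of Wip1, rose by 0.68 ± 0.07 (adjusted p = 0.000119). Without WT replicate 1 or Wip1SH replicate 1 or 2, 1 phosphatase rose. In Wip1SH against WT, equal array medians over all probes gave 6 higher and 1 lower for the sensors, 6 and 1 for the regulators and 3 and 1 for the phosphatases, and WT+ATMi against WT gave 4 and 1 for the DNA-PK partners. With the covariate these were 0 and 2, 0 and 2, 1 and 1, and 0 and 0.

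**Figure D4:**
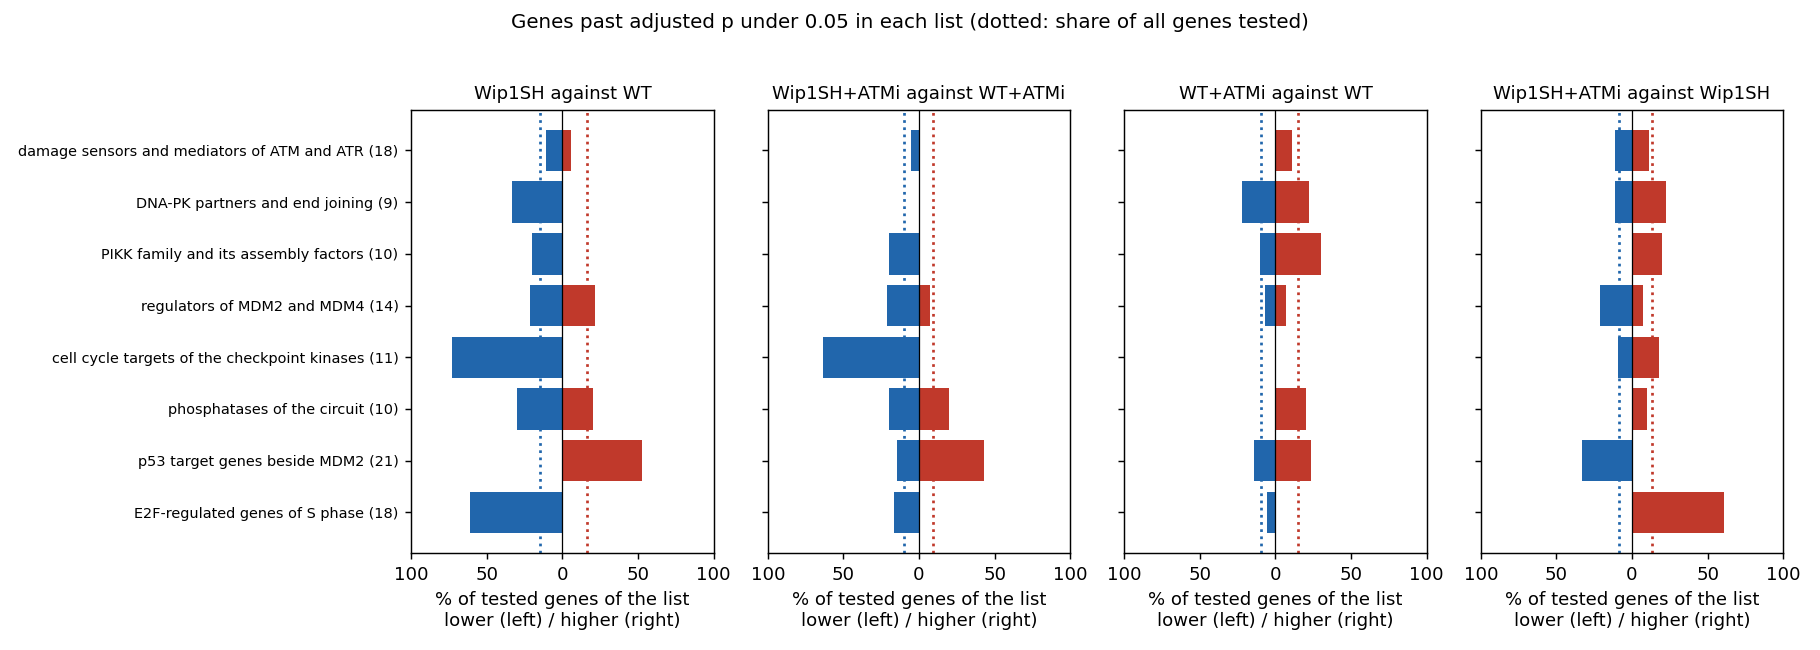
Percent of a list's tested genes called higher (right, red) and lower (left, blue) on the horizontal axis, for 8 pathway lists with the number tested in parentheses, in the 4 comparisons of 1 factor at a time; dotted lines give the share of all 11785 genes in that direction. The cell cycle list had 8 of 11 lower and the p53 targets beside MDM2 11 of 21 higher in Wip1SH against WT, and the E2F-regulated genes had 11 of 18 higher in Wip1SH+ATMi against Wip1SH.

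For each member called in a comparison of depletion or inhibitor by its brightest probe, the probes of other genes nearest in pattern were sought by the root mean square difference of log2 intensities over the 12 arrays, each probe centred on its mean. For CHEK1 these were MTMR4 (0.0987), HADH (0.104) and HMGB3 (0.106), where CHEK1 itself ranged over 1.05. For PRKDC ILMN_1769517 they were GPRC5C (0.0848), GRK2 (0.0907) and C1QTNF1 (0.0934), with a range of 0.906. For MDM2 they were GART (0.134), CCL3L1 (0.135) and TAP2 (0.136), with a range of 1.14, and for MDM4 C18orf32 (0.201), MAX (0.216) and NCMAP (0.226), with a range of 1.51. The nearest probes were the picks of 15772, so their likeness is a description only.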

How the data were processed

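Total RNA of 12 HCT116 samples was hybridised as biotin-labelled cRNA to 1-colour Illumina HumanHT-12 v4 bead arrays. The deposited probe signals are linear intensity values, not normalized across arrays, and each has a deposited detection p-value against the negative controls, per the file headers. In the second table, deposited log2 values differed by at most 5e-06 from those computed here, and the sources used here do not state how the authors made them. The number of arrays limits the precision.

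Signals were background-corrected and quantile-normalized with neqc of limma 3.58.1 in R 4.3.3 (offset 16), then taken to log2. Of 47323 probes, 30113 had 1 gene symbol in the platform table, 8 several and 17202 none here. The 15772 with detection p under 0.05 on at least 3 of 12 arrays were tested, 1 mean per group (lmFit, eBayes), with Benjamini-Hochberg adjustment. Errors are SE of log2 differences unless SD is named, with n = 3 arrays per group. The brightest of a gene's tested probes stood for it in the list counts (11785 genes). The fit was tested on simulated data.

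All probes of the 7 members are named, and from each list up to 4 genes per comparison with the smallest adjusted p. The members, lists and tests were chosen with earlier results of these data known. There were 14 processing alternatives, one a fold threshold, and each array was left out in turn. Array batches were not given. The files name no genome build, so no probe is placed on the genome. Promoter windows and their coordinates are from RefSeq's table for GRCh38.p14.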

Additional observations from a re-analysis of the deposited data

How the results depend on the processing

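Each value was recomputed under 14 processing alternatives and without each of 12 arrays. Of the single-probe differences, the fold threshold aside, 1677 values kept direction and side of the threshold, 65 turned sign while past it in neither setting (-0.28 to 0.18 before), 104 lost it and 32 gained it. A further 1 turned round and passed, CHEK2 ILMN_2395236 in WT+ATMi against WT, at 0.42 with equal array medians over all probes. The numbers of member probes called were 1 (Wip1SH against WT), 4 (WT+ATMi against WT), 3 (Wip1SH+ATMi against Wip1SH), 4 (Wip1SH+ATMi against WT+ATMi), 2 (Wip1SH+ATMi against WT) and 5 (Wip1SH against WT+ATMi). With equal array medians over all probes they were 2, 9, 1, 2, 4 and 5, as the bulk of probes shifted up in the brighter groups: of the tested probes 8682 were then higher and 199 lower in WT+ATMi against WT (2117 and 1516 before) and 4850 higher and 395 lower in Wip1SH against WT (2486 and 2117 before). With equal medians over the tested probes these splits were 1639 and 2598, and 2084 and 2540. With each array's detected-probe number as a covariate, which differs between the groups, the counts were 0, 0, 0, 1, 0 and 3. Of all tested probes 907, 21, 156, 1279, 33 and 3810 passed in the same order. A log2 fold change of at least 1 left 0 in each comparison. In Wip1SH against WT the count was 2 with an offset of 50, without background correction, with only the groups compared and with an intensity trend, MDM4 being the added probe. Without a detection filter, which adds probes to the adjustment, Wip1SH+ATMi against Wip1SH gave 1 and Wip1SH+ATMi against WT+ATMi 2. With only the groups compared, Wip1SH+ATMi against Wip1SH gave 1 and Wip1SH+ATMi against WT gave 1. With 1 probe per gene, Wip1SH+ATMi against WT+ATMi gave 2 and Wip1SH against WT+ATMi gave 3. Leaving out each array gave 1 to 2, 1 to 5, 1 to 2, 2 to 4, 1 to 3 and 3 to 6. The interaction stayed at 0 in all that were run.

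Replicate numbers were not used as pairs in the main fit. The deviations of 18 same-numbered pairs correlated at -0.0821 to 0.15 (median 0.0282, 3 over 0.1). Those of Wip1SH+ATMi with WT+ATMi and of Wip1SH with WT were all positive, at 0.0526 to 0.15. By the mean correlation over the other groups, 7 of 12 arrays correlated best with their own number. A weak pairing is thus not excluded. With the replicate number as a block the counts were 1, 4, 3, 4, 2, 4 and 0. Within WT+ATMi against WT, MDM2 was then at an adjusted p of 0.0603 and ATM ILMN_1779214 at 0.0422. The deposited log2 values differ by at most 5e-06 from those computed here, so they had to give the same counts as above. They are counted among the alternatives but are no separate check.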
